A study of Mus musculus with 6 samples.

Results

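The genes described here are 38 genes of the dividing cell, 18 that act in S phase, when DNA is copied, and 20 that act in mitosis, when the copies are separated. They were taken by name, with earlier results of these data known, as genes with a single platform symbol on the array, and no threshold on a measured value was set. Each was read by 1 probe set, the one whose mean over the 6 arrays was highest. All 38 were found among the 18193 genes tested. RNA came from neuralized embryoid bodies, floating clumps of mouse embryonic stem cells that differentiate towards neural progenitors. Both groups were made from 1 stem cell line that expressed a FLAG-tagged Gli1 transgene from the Rosa26 promoter, so the controls carried this hedgehog pathway transcription factor too. After 2 days in suspension the RA group received 500 nM all-trans retinoic acid for 3 days. The Ag1.3 group received 500 nM retinoic acid and 50 nM Ag1.3, an agonist of Smoothened, for the same 3 days. Each group had 3 cultures, and RA and Ag1.3 cultures with the same number were grown in parallel as a pair.

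As background, a cell that commits to divide releases E2F transcription factors from the retinoblastoma proteins, and E2F switches on the genes that license and copy DNA. Mitotic genes are switched on later, by the MuvB complex together with B-Myb and FoxM1. In the neural tube both programmes run in progenitors and stop when a cell becomes a neuron, and hedgehog signalling is known to keep several progenitor types dividing. The array measures RNA of whole aggregates, so fewer dividing cells and less of these RNAs per cell cannot be told apart.

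The RNA was hybridized to 1 array per culture, and intensities are the deposited probe set values on a linear scale. Medians over the whole table were 48.8 to 52.7. The hybridization spikes, RNAs added in fixed amounts, were brighter on Ag1.3 arrays by 0.18 (log2), which matters here because the members differed by amounts of that size. Actin 3' to 5' signal ratios were 1.46 to 1.51 in RA and 1.33 to 1.63 with Ag1.3. Ptch1, a direct target of the hedgehog pathway, rose with Ag1.3 by 1.23 on the log2 scale (adjusted p = 0.0235). Values of 3 control probe sets for bacterial Trp genes, 4.02 to 20.7, served as a measure of background, and the mean of each of the 38 members was above that range.

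The question asked of the members was whether the S phase or the mitotic genes differed after 3 days of Smoothened activation. In limma's test over all genes, 0 of 18 S phase and 0 of 20 mitotic members passed an adjusted p of 0.05, against 1.39% of all genes tested. At an unadjusted p under 0.05, 1 S phase member (Rrm1) and 2 mitotic members (Bub1b and Kif20a) read lower and 0 read higher, against 7.68% and 7.24% of all genes. The members nevertheless leaned one way. Values were below 0 for 15 of 18 S phase and 18 of 20 mitotic members, against 52% of all genes, and above 0 for 3 and 2, against 48%. Their median log2 fold changes were -0.065 and -0.074, against -0.0070 for all genes tested. With Ag1.3, 9 S phase and 13 mitotic members read lower in all 3 pairs, which 19.5% of all genes did, and 0 and 1 read higher in all 3, which 17.2% of all genes did. In size, the lean was smaller than the difference in the spikes. As the spikes were brighter with Ag1.3, centring on them lowers all genes by the same amount. It leaves the members' distance from the median of all genes as it was. With arrays centred on the spikes, the medians were -0.25 and -0.26, all 38 values were below 0 and the median of all genes was -0.19. In that setting 2 S phase and 4 mitotic members passed, all lower, against 13.3% of all genes called lower.

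**Figure D1:**
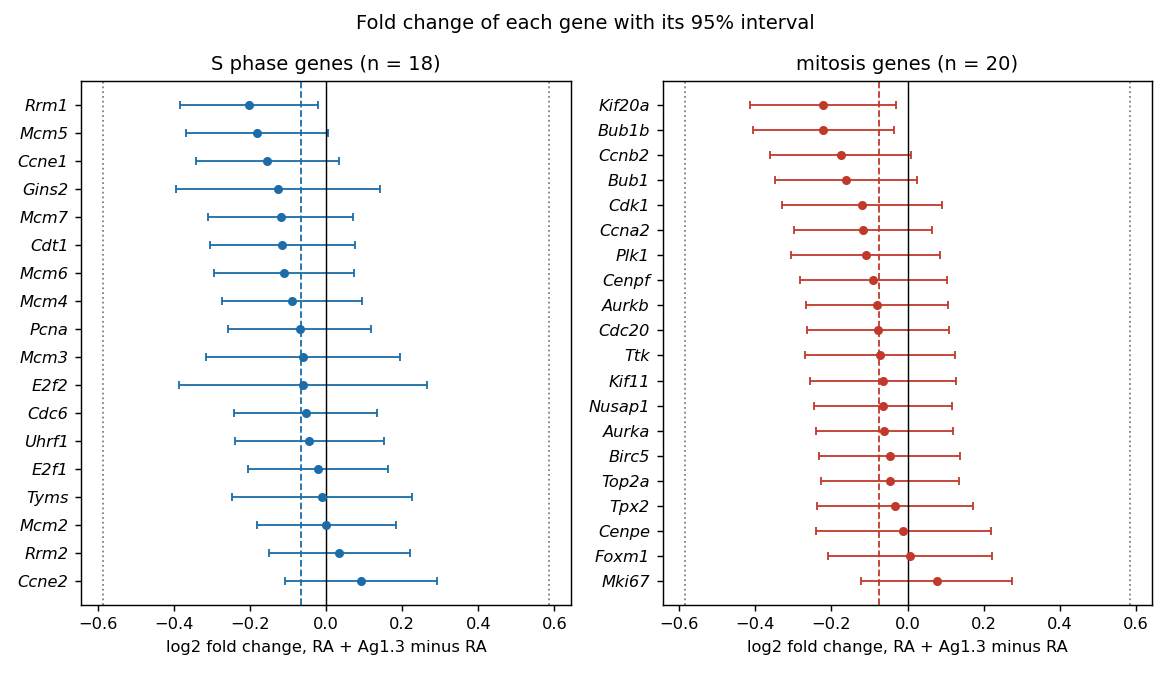
Log2 fold change of each S phase gene (left, blue) and mitotic gene (right, red), RA + Ag1.3 minus RA, with limma's 95% interval from 3 pairs. Dashed lines mark the class medians of -0.065 and -0.074, dotted lines a 1.5-fold change either way, and all 38 intervals lie between the dotted lines.

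The intervals limit what could have gone unseen. Taken gene by gene, on the 1 chosen probe set of each, the 95% intervals of all 38 members lay inside a 1.5-fold change in either direction. So did those of 89.6% of all genes. The lowest bound, for Kif20a, corresponded to a 1.33-fold lower level, and the highest, for Ccne2, to a 1.22-fold higher level. The smallest change among the 252 genes past the threshold was 0.50 on the log2 scale, a 1.41-fold change, so differences of the members' size were below what this fit called anywhere. These bounds take the arrays' overall levels as equal and do not cover further probe sets. The other Ccne1 probe set, at -0.31 with SE 0.13, was both lower and less precise than the chosen one.

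The promoter sequences of both classes were set side by side. RefSeq entries of GRCm38.p6 were available for 15 S phase and 15 mitotic members, and the 250 bases before the annotated start were searched on both strands for exact words. The E2F words TTTCCCGC, TTTGGCGC, TTTCGCGC and TTTGCCGC were found for 5 S phase members (Cdc6, Mcm5, Mcm6, Mcm7 and Uhrf1) and 1 mitotic member (Cdk1), against 2.16% of the 27025 genes in the table. TTTGAA, the core of the cell cycle homology region that MuvB binds, was found for 6 mitotic members (Ccnb2, Cdc20, Cdk1, Kif11, Mki67 and Top2a) and 2 S phase members (E2f2 and Mcm2), against 18.3%. CCAAT, the NF-Y box, was found for 10 S phase and 13 mitotic members, against 37.5%. The GLI word TGGGTGGTC was found for 0 of the 30, against 0.255%. At so low a share 0 of 30 was likely in advance, so this count cannot show that GLI sites are lacking. A gene with several starts counted if any start had a match. These matches are descriptions of the letters, and base composition differs between promoters. The 170 bases before the start follow for the S phase genes with an E2F word and the mitotic genes with TTTGAA, 3 of each in order of p among those with a single annotated start in the table, to show the 2 arrangements. Mcm7 has more than 1 start and is not shown. They lie at chr8:75109339-75109508 on the plus strand for Mcm5, chr1:128359706-128359875 on the minus strand for Mcm6 and chr11:98907981-98908150 on the plus strand for Cdc6, and at chr9:70421555-70421724 on the minus strand for Ccnb2, chr10:69352913-69353082 on the minus strand for Cdk1 and chr4:118437344-118437513 on the minus strand for Cdc20. Capitals mark E2F words, TTTGAA and CCAAT on either strand, and a longer capital run is 2 overlapping E2F words.
Mcm5: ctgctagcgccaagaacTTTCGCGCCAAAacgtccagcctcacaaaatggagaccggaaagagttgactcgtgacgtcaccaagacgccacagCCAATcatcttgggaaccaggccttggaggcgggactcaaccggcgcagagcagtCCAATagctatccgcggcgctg
Mcm6: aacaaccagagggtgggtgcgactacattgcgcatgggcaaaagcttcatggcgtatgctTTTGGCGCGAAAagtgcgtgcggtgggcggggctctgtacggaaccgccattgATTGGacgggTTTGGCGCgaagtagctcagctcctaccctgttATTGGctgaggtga
Cdc6: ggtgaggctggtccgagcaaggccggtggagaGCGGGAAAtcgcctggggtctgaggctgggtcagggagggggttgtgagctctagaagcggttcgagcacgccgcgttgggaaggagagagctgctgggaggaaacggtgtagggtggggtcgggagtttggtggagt
Ccnb2: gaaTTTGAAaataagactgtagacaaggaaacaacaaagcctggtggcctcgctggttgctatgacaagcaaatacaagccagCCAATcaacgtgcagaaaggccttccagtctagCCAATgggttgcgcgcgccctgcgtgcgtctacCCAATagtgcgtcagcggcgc
Cdk1: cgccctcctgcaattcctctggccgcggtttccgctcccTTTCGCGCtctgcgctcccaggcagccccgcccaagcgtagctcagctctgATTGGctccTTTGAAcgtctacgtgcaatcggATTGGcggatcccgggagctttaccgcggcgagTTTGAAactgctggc
Cdc20: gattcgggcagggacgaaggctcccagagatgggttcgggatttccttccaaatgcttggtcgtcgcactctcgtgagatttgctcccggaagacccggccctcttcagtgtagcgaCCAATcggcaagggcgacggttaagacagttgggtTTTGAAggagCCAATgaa
Mcm5 has 2 overlapping E2F words and 2 CCAAT boxes in this stretch, and Mcm6 has 3 E2F words and 2 CCAAT boxes. Cdc6 has 1 E2F word. Ccnb2 has 3 CCAAT boxes and 1 TTTGAA, and Cdc20 has 2 CCAAT boxes with 1 TTTGAA between them. Cdk1 carries both kinds, with 1 E2F word, 2 CCAAT boxes and 2 TTTGAA.

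The Mcm2 to Mcm7 proteins form the ring that opens DNA at replication origins. Array values are given in the order of replicates 1 to 3. Mcm5 read 1996, 2003 and 2088 in RA and 1692, 1831 and 1840.0 with Ag1.3. The groups did not overlap and each pair was lower, by -0.18 ± 0.075 (log2 fold change and SE, adjusted p = 0.345), and another Mcm5 probe set gave -0.24. Mcm7 read 3507, 3662 and 3383 in RA and 3094, 3337 and 3281 with Ag1.3, a log2 fold change of -0.12 (adjusted p = 0.55). Mcm6 read 2552, 2681 and 2611 in RA and 2303, 2488 and 2471 with Ag1.3, a log2 fold change of -0.11 (adjusted p = 0.563). For both, every Ag1.3 culture lay below every RA culture, by a narrow margin. Such separation downwards was found for 4 of 18 S phase and 2 of 20 mitotic members, against 5.35% of all genes, and upwards for 0 of 38, against 6.45%. Mcm4 read 1227 ± 53.99 in RA and 1152 ± 61.96 with Ag1.3 (SD, n = 3 each) and was lower in each pair, at -0.090. Mcm3 read 1194, 1092 and 1210.1 in RA and 1162, 1199 and 995 with Ag1.3, and its pairs disagreed, with 2 lower and 1 higher. Further Mcm3 probe sets gave -0.078, -0.14 and -0.17, and a dim one gave 0.098. Mcm2 was level, at 1610.2 ± 37.9 in RA and 1610.4 ± 19.04 with Ag1.3, with a 95% interval of -0.18 to 0.18 on the log2 scale. Its other probe set gave -0.12, a gap between probe sets of 1 gene as wide as most gaps between subunits of the ring.

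Loading of the ring needs Cdc6 and Cdt1, and its activation needs the GINS complex, of which Gins2 is a subunit. Cdt1 read 1576, 1592 and 1646 in RA and 1491, 1387 and 1568 with Ag1.3. These groups did not overlap, although the change was small, at -0.12 with SE 0.076 and adjusted p = 0.565. Cdc6 read 452 ± 35.6 in RA and 435 ± 42.9 with Ag1.3, a log2 fold change of -0.054. Gins2 read 459, 436 and 358 in RA and 409.6, 342 and 389 with Ag1.3, lower in pairs 1 and 2 and higher in pair 3. Its dimmer probe set gave -0.23 against -0.13 for the brighter one.

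Among regulators of S phase entry, the cyclins E, which activate Cdk2, pointed opposite ways. Ccne1 read 507, 526 and 566 in RA and 438, 466 and 530.2 with Ag1.3, lower in each pair at -0.15 (SE 0.075, adjusted p = 0.425), and its other probe set gave -0.31. Ccne2 read 295, 231 and 217 in RA and 316, 231 and 249 with Ag1.3, at 0.091 (adjusted p = 0.671), and was the S phase member with the highest value. Pair 2 was level for Ccne2, and its groups overlapped. E2f1, an activator of the S phase genes, read 152, 108 and 107 in RA and 154, 104 and 104 with Ag1.3. Its levels followed the pair and not the treatment: both cultures of pair 1 were high, and the value was -0.021. E2f2 read 194, 167 and 83.7 in RA and 171, 132 and 106 with Ag1.3, and its RA cultures spread more than those of any other member. Its pairs disagreed, at -0.17, -0.30 and 0.29, and its interval of -0.39 to 0.26 was the widest among the 38.

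Rrm1 and Rrm2 are the subunits of ribonucleotide reductase, which makes the building blocks of DNA. Rrm1 read 1498, 1322 and 1136 in RA and 1278, 1154 and 994 with Ag1.3. Each pair was lower by a like amount, at -0.20 ± 0.073, unadjusted p = 0.0344 and adjusted p = 0.284, while the groups overlapped because levels differed between pairs. Rrm1 was the 1 member that passed when the variance moderation followed intensity (adjusted p = 0.0397), against 2.07% of all genes called lower there, and its other bright probe set gave -0.12. Rrm2 read 2580.1 ± 172 in RA and 2641 ± 115 with Ag1.3, a log2 fold change of 0.035 with an interval of -0.15 to 0.22. Its other probe sets gave 0.076 and -0.021, and the difference between the subunits was not tested. Tyms, which makes thymidylate, read 36.6, 35.97 and 37.2 in RA and 29.4, 39.3 and 40.6 with Ag1.3, close to background, and was not interpreted. Pcna, the clamp that holds the polymerase on DNA, read 3972, 3752 and 3259 in RA and 3629, 3587 and 3227 with Ag1.3, at -0.070. Uhrf1, which keeps DNA methylation through replication, read 872 ± 27.6 in RA and 847 ± 80.1 with Ag1.3, at -0.044.

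**Figure D2:**
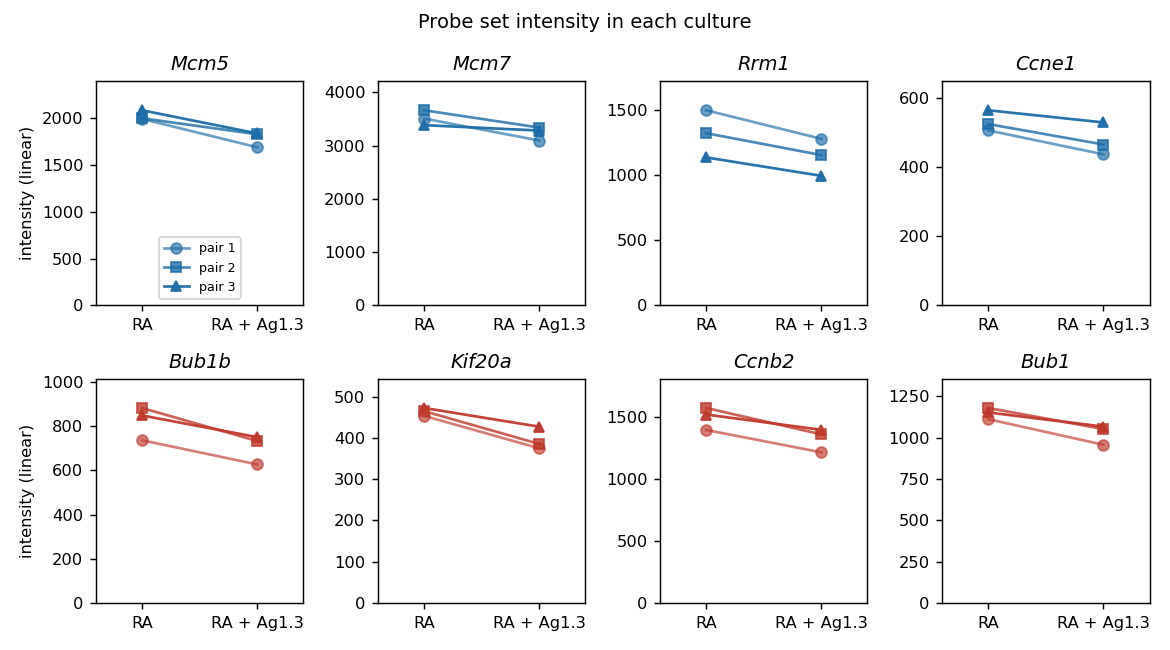
Linear probe set intensity (vertical axis from 0) of 4 S phase genes (top, blue) and 4 mitotic genes (bottom, red) in the RA and RA + Ag1.3 cultures, with a line for each of the 3 pairs. The genes shown are the 4 of each class with the smallest unadjusted p in limma's test. Every line slopes down, from 1498 to 1278 for Rrm1 in pair 1, and a choice by small p favours pairs that agree. Of these genes 0 passed the adjusted threshold. Of all 38 members, 22 were lower and 1 was higher in all 3 pairs, against 19.5% and 17.2% of all genes.

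Mitotic entry is driven by Cdk1 with cyclins A and B. Ccnb2, a B cyclin, read 1394, 1571 and 1519 in RA and 1214, 1359 and 1395 with Ag1.3. Each pair was lower, at -0.18 ± 0.074 and adjusted p = 0.358, and the groups overlapped. Ccna2 read 1429, 1486 and 1279 in RA and 1289, 1392 and 1183 with Ag1.3, at -0.12, and Cdk1 read 1901, 1932 and 1986 in RA and 1592, 1905 and 1871 with Ag1.3, at -0.12. For Cdk1 pair 1 was lower by 0.25 on the log2 scale and the other pairs by 0.020 and 0.085, so its value rests mainly on 1 pair. Plk1, a kinase that matures centrosomes and opens mitosis, read 852, 844 and 809.8 in RA and 822, 801 and 700.1 with Ag1.3, at -0.11. Aurka, the kinase that activates Plk1, read 666 ± 20.1 in RA and 638 ± 23.8 with Ag1.3, at -0.061. Foxm1, the transcription factor of the mitotic genes, read 205, 152 and 165 in RA and 211, 167 and 149 with Ag1.3, at 0.0066, and like E2f1 was high in both cultures of pair 1.

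The spindle checkpoint delays the separation of chromosomes until all are attached. Bub1b, the checkpoint protein BubR1, read 737, 883 and 849 in RA and 627, 734 and 751 with Ag1.3. It was lower in each pair, at -0.22 ± 0.074, unadjusted p = 0.027 and adjusted p = 0.255, and its further probe sets gave -0.30 and -0.16. Bub1, a kinase of the same checkpoint, read 1113, 1180.5 and 1153 in RA and 958, 1053 and 1068 with Ag1.3. Its groups did not overlap, with -0.16, SE 0.074 and adjusted p = 0.399. Ttk, the kinase that starts checkpoint signalling, read 443 ± 33.9 in RA and 420.5 ± 31.9 with Ag1.3, at -0.072. Cdc20, the checkpoint's target and activator of the anaphase-promoting complex, read 2213, 2467 and 2369.6 in RA and 2099.5, 2252 and 2328 with Ag1.3, at -0.077. Further Cdc20 probe sets gave -0.15 and -0.088. The kinase Aurkb and survivin (Birc5), partners in the chromosomal passenger complex, had values of -0.079 and -0.047. Aurkb read 676 ± 85.7 in RA and 638 ± 69.3 with Ag1.3, and its other probe set gave -0.16.

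Kif20a, a kinesin needed for cytokinesis, had the lowest value of the 38. It read 453, 465 and 472 in RA and 374, 385 and 427 with Ag1.3. The groups did not overlap, and the value was -0.22 ± 0.076, unadjusted p = 0.0298 and adjusted p = 0.267. Kif11, the kinesin that pushes spindle poles apart, read 658 ± 31.1 in RA and 628 ± 25.8 with Ag1.3, at -0.065, and its dimmer probe sets gave -0.14 and -0.16. The centromere proteins Cenpf and Cenpe read 792, 859.5 and 702 in RA and 715, 785 and 703 with Ag1.3 for the first and 314, 358 and 307 in RA and 310.2, 316 and 344 with Ag1.3 for the second. Their values were -0.090 and -0.011, and Cenpe was higher in pair 3. Among spindle assembly factors, Tpx2 was at -0.033 and Nusap1 at -0.064. Top2a, the topoisomerase that untangles chromosomes, read 2631, 2770.3 and 2558 in RA and 2537, 2646 and 2522 with Ag1.3, at -0.046. Mki67, the antigen widely used to count cycling cells, was the member with the highest mitotic value. It read 1089 ± 121 in RA and 1146 ± 72.1 with Ag1.3, was higher in each pair, and had a log2 fold change of 0.076 with an interval of -0.12 to 0.27 (adjusted p = 0.728).

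The medians of the S phase and mitotic classes lay close together. In pairs 1, 2 and 3 the median log2 difference was -0.12, -0.11 and -0.044 over S phase members and -0.093, -0.082 and -0.071 over mitotic members. The mitotic median was thus 0.023 and 0.026 above the S phase median in pairs 1 and 2 and 0.026 below it in pair 3, without a common direction. Over all genes the pairs stood at -0.0059, -0.043 and 0.022, so both classes lay below all genes in each pair. The lowest of the 6 arrays was an Ag1.3 array for 14 of 18 S phase and 15 of 20 mitotic members, against 50.1% of all genes, and the highest was an RA array for 13 and 18, against 51.2%. No test was made over the members. Of 51 further probe sets of the members, 42 had the same sign as the chosen one and 9 the opposite sign, 0 of these 9 with an unadjusted p under 0.05.

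The change with Ag1.3 was smaller than the SD of the 3 RA cultures, on the log2 scale, for 11 of 18 S phase and 12 of 20 mitotic members. That SD holds the differences between pairs, which the block removes. The median SD of the 3 pair differences was 0.058 for S phase and 0.062 for mitotic members, against a median SD over RA cultures of 0.079 and 0.098, and it was the smaller of these SDs for 11 and 14 members. The spread over RA cultures was greatest for E2f2, E2f1, Ccne2 and Foxm1, with SDs in RA of 0.57, 0.26, 0.22 and 0.20, and Rrm1 followed at 0.20. The first of these genes were dim, with mean intensities over all arrays of 142 for E2f2, 122 for E2f1, 257 for Ccne2 and 175 for Foxm1. Only Tyms was dimmer, at 36.5, and its SD in RA was 0.017. Deviations of the 38 members from their group means correlated at 0.90, 0.49 and 0.71 between cultures of pairs 1, 2 and 3, and at -0.79 to 0.013 between cultures of different pairs. These are correlations across genes of the same arrays and describe the pairing. A gene's deviations cancel out within a group, so positive values within pairs bring negative ones between different pairs on balance. In pair 1, E2f1, E2f2, Ccne2, Foxm1, Pcna, Rrm1 and Aurkb were high and Bub1b and Ccnb2 were low in both cultures. The mean log2 intensity over the S phase members was 9.75, 9.67 and 9.60 in RA and 9.66, 9.58 and 9.57 with Ag1.3, highest in pair 1 in both groups. Over the mitotic members it was 9.78, 9.84 and 9.71 in RA and 9.67, 9.74 and 9.67 with Ag1.3, highest in pair 2 in both groups.

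**Figure D3:**
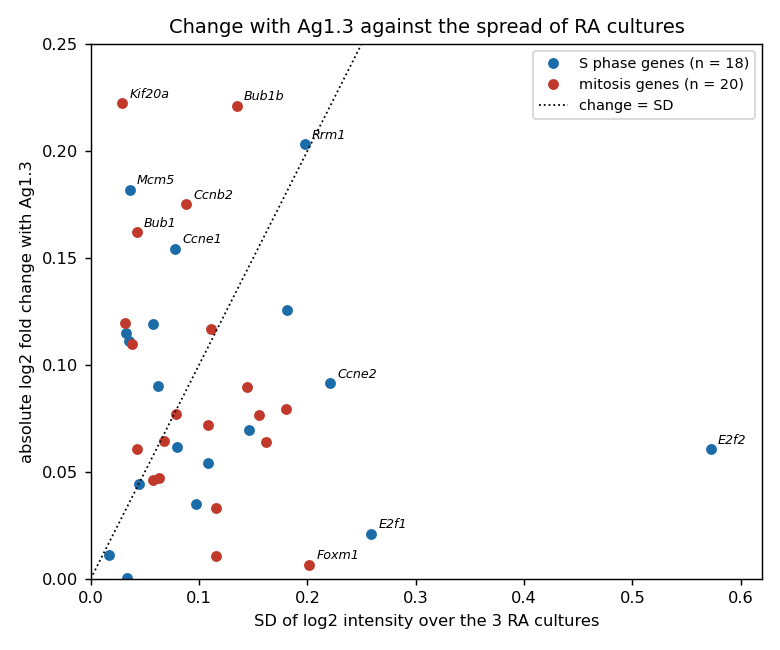
Absolute log2 fold change with Ag1.3 (vertical axis) against the SD of log2 intensity over the 3 RA cultures (horizontal axis), 1 point per gene, S phase in blue and mitotic in red. Points below the dotted line, 11 S phase and 12 mitotic genes, changed by less than that SD, and E2f2 lies farthest right at 0.57.

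Other genes of the same processes also read mostly below 0, on lists chosen with earlier results of these data known. In a further S phase list of origin, polymerase, clamp loader and helicase genes, 0 of 42 measured genes passed limma's threshold, against 1.39% of all genes. At an unadjusted p under 0.05, 6 read lower and 0 higher, against 7.68% and 7.24%. Values were below 0 for 40 of 42, against 52%, and the median was -0.12. Of these genes 29 were lower in all 3 pairs, against 19.5%, and 15 had lower values without overlap of the groups, against 5.35%. Rfc5, a subunit of the clamp loader, read 1169 ± 31.2 in RA and 947 ± 21.4 with Ag1.3, at -0.30 with adjusted p = 0.146. Orc1, a subunit of the origin recognition complex, read 204 ± 21.3 in RA and 158 ± 37.6 with Ag1.3, at -0.35 with adjusted p = 0.169. In a further mitosis list, 0 of 44 passed, against the same 1.39%. At an unadjusted p under 0.05, 1 read lower and 0 higher, below the 7.68% and 7.24% of all genes, while 37 values were below 0, against 52%, and the median was -0.10. Zwilch, a kinetochore protein, was at -0.30 (adjusted p = 0.179) and Spc25, of the Ndc80 complex, at -0.18 (adjusted p = 0.339).

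Among 39 measured genes of cell cycle control, 0 passed, against 1.39% of all genes. At an unadjusted p under 0.05, 4 read higher and 3 lower, near the 7.24% and 7.68% of all genes, and the median was -0.059. Mybl2, the B-Myb that joins MuvB to activate mitotic genes, stood lowest. It read 423, 508 and 625 in RA and 276, 355 and 469 with Ag1.3. Each pair was lower, at -0.50 with SE 0.079 and adjusted p = 0.0606, just outside the threshold. Its relative Mybl1 pointed the other way, at 82.1 ± 15.8 in RA and 106 ± 22.7 with Ag1.3, a change of 0.31 and adjusted p = 0.153. Foxm1, which binds after B-Myb, had a value of 0.0066.

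Markers of neurons and of pluripotent cells differed by more than the members did. Of 20 neuron markers, 12 rose and 0 fell, against 1.07% and 0.313% of all genes, with a median of 1.07. Their summed intensity was 4762 to 8081 in RA and 10553 to 15460 with Ag1.3. Of 12 pluripotent cell markers 1 fell (Pou5f1) and 0 rose, with a median of -0.60 and sums of 6197 to 10265 in RA and 3902 to 7910 with Ag1.3. All 12 values were below 0, against 52% of all genes. At limma's unadjusted p under 0.05, 10 read lower, against 7.68%. Neural progenitor markers each had a mean above the background range, and 1 of 12 rose (Notch1), with sums of 11337 to 17319 and 13628 to 17838. Their median was 0.15, and values ran from -0.48 to 0.66, with 10 of 12 above 0, against 48% of all genes. Endoderm markers summed to 1250.1 to 2832 and 875 to 2224 (2 of 14 fell), mesoderm markers to 562 to 848 and 549 to 819 and neural crest markers to 435 to 578 and 389 to 531, with 0 of 11 and 0 of 6 past the threshold. At or below the background range were Afp and Apoa1 among endoderm and Foxc1 and Foxc2 among mesoderm markers. The sums of the members were 23252 to 24844 in RA and 22338 to 23104 with Ag1.3 for S phase, and 20024 to 21741 and 19000.3 to 20319 for mitosis. The part of these cell types in the members' values was not tested.

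**Figure D4:**
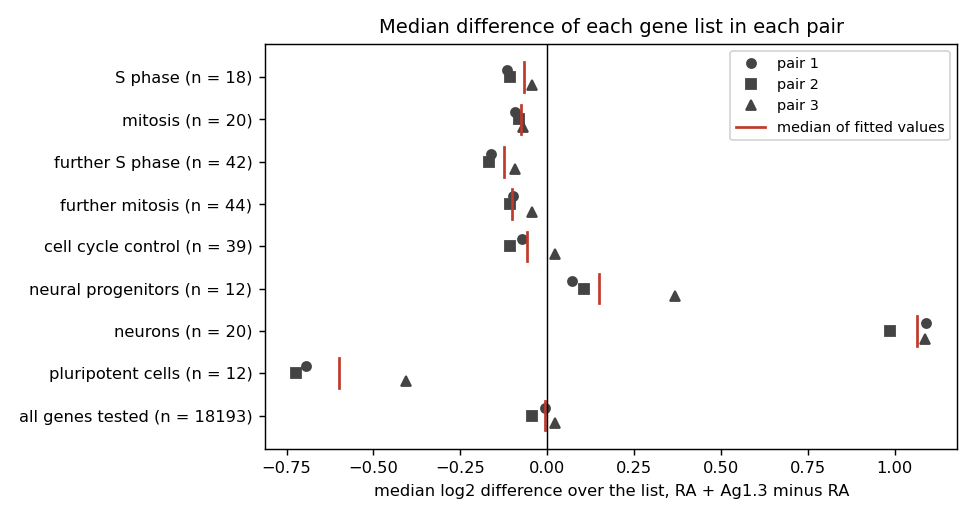
Median log2 difference, RA + Ag1.3 minus RA, over the genes of each list in pairs 1 to 3 (symbols) and median of the fitted values (red bars). The S phase and mitotic medians stay between -0.12 and -0.044 in each pair, while neuron markers lie near 1.07 and pluripotent cell markers near -0.60.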

How the data were processed

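The deposited table held 1 linear intensity per probe set and array (45101 probe sets, 6 arrays). How the authors summarised and scaled it is not given in the sources used here. Per the labels' protocols, cRNA was labelled with biotin by a 3' IVT Express kit. The 64 controls were left out, 34945 probe sets had 1 platform symbol, and each of 18193 genes was read by the 1 whose mean log2(intensity + 16) was highest. Fold changes are on that log2 scale, which understates changes of low genes. limma 3.58.1 in R 4.3.3 (lmFit, eBayes) was fitted over all genes with treatment and replicate number as a block, two-sided, with Benjamini-Hochberg adjustment over all genes and a threshold of 0.05. The series' design text pairs the cultures, and deviations of same-numbered arrays correlated over all genes at 0.54, 0.19 and 0.56. With 3 pairs, p-values measure the spread between parallel cultures of 1 line, and precision is limited by the number of arrays. The fit was tested on simulated data with planted changes larger than that of any member, so that test does not cover changes of the members' size. All 38 members are named. Array values are given for the 6 S phase and 8 mitotic members with the smallest p, for the 2 brightest and 2 dimmest of each class, and for some chosen after their values were seen (E2f2, Ccne2, Mcm3, Gins2). From each further list the 2 genes with the smallest p are named. Members and lists were chosen with earlier results of these data known. Alternatives changed the pseudocount, the filter, the probe set, the scaling, the moderation, the block and the pairs used.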

Additional observations from a re-analysis of the deposited data

How the results depend on the processing

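Most settings gave the same count of passing members as the main fit, which was 0. Settings that call fewer genes than the main fit's 252 say little here, as 0 members passed to begin with. With more genes called, at a pseudocount of 64 (831) and among brighter genes (950), 0 members passed too. Over 12 alternatives, 0 S phase and 0 mitotic members passed in limma's test, except with arrays centred on the hybridization spikes, where 2 (Mcm5 and Rrm1) and 4 (Bub1, Bub1b, Ccnb2 and Kif20a) did and the medians were -0.25 and -0.26, and with moderation that follows intensity, where 1 S phase member (Rrm1) did. Spike centring moved the median of all genes to -0.19 and gave 295 higher and 2413 lower genes, 2708 in all, against 195 and 57. Without the replicate block 0 of 38 passed, and only 86 genes did in all, so this setting could hardly have added a member. The count over all genes was 0 at a pseudocount of 1 (2411 at an unadjusted p under 0.05), 831 at 64, 950 among brighter genes, 891 with moderation that follows intensity, and 39, 35 and 62 without pair 1, 2 or 3.

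The mitotic median was -0.11 with the mean of probe sets and -0.060 to -0.096 without 1 pair, the S phase median -0.067 to -0.086, and their difference -0.0099 to 0.021. Values near 0 changed sign in some settings. Spike centring turned Ccne2 (-0.094), Foxm1 (-0.18), Mcm2 (-0.18), Mki67 (-0.11) and Rrm2 (-0.15) below 0. The mean of probe sets gave 0.037 for E2f2, -0.058 for Mcm2 and 0.012 for Tpx2, and quantile normalization 0.00086 for Cenpe and -8.4e-05 for Mcm2. Without 1 pair, values ran from -0.095 to 0.070 for Cenpe, -0.24 to 0.059 for E2f2, -0.050 to 0.080 for Foxm1, -0.016 to 0.015 for Mcm2, -0.16 to 0.047 for Mcm3, -0.098 to 0.0035 for Tpx2 and -0.063 to 0.090 for Tyms. The cause was not tested. Tyms was under the filter for brighter genes.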
